A study of Mus musculus with 10 samples.

Results

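The liver-high events of a mouse splicing array are those whose transcript level in liver lay at least 1.0 unit above the highest of the other 9 tissues, and 66 of the 3126 events met this rule (2.11%). Each event is an alternative exon, named here by its number on the array, with 7 probes. C1 and C2 lie in the flanking exons and A in the alternative exon. C1:A and A:C2 cross the junctions made when the exon is included, and C1:C2 crosses the one made by skipping. What the remaining probe, INT, targets is unstated in the labels and the table. The transcript level is the mean of C1 and C2, so these flanking probes chose the events, and everything said of level below is a description.

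The liver sample, like those of kidney, intestine, heart, brain, muscle, spleen, testis, lung and salivary, was pooled total RNA from CD1 mice, an outbred strain. The labels give no age, sex or number of animals per pool. Each tissue was 1 sample, so differences between tissues describe these arrays and carry no test across animals. Values are in the deposited units of a compressed scale of unstated base, on which a higher value means more signal, so differences are given in units and never as folds. In whole-tissue RNA, more cells of a type and more RNA per cell cannot be told apart. Values within a probe are compared across tissues, since probes differ in brightness for reasons other than abundance.

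Liver tissue consists mostly of hepatocytes, which secrete plasma proteins, make bile acids, store and release glucose, run the urea cycle and convert drugs and steroids. Many genes of these pathways are transcribed far more in liver than elsewhere under a small set of liver-enriched transcription factors. A cassette exon can be spliced in or left out of such a transcript, and the junction probes read these outcomes separately. The table pairs no event number with a gene, so no event is given a name or role here, the liver label could not be checked against hepatocyte markers, and whether several events share a gene is not known.

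All 10 arrays had close medians, from 2.04 to 2.19. Values spread more on the liver array, with an SD over probes of 1.43, than on the other arrays, where it ran from 1.18 to 1.42. Median centring leaves this spread in place. When the arrays were brought to one distribution by quantile normalization, 34 events met the rule, all of them among the 66.

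The liver-high events were bright in liver. Their level there ran from 3.24 to 7.87 with a median of 5.56, whereas the median of all events in liver was 2.57. In kidney the same 66 events had a median of 3.08, above the kidney median of 2.66 over all events. In the other 8 tissues their medians lay between 2.02 in salivary and 2.40 in intestine, each below the median of all events in that tissue, which ran from 2.42 to 2.71.

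**Figure D1:**
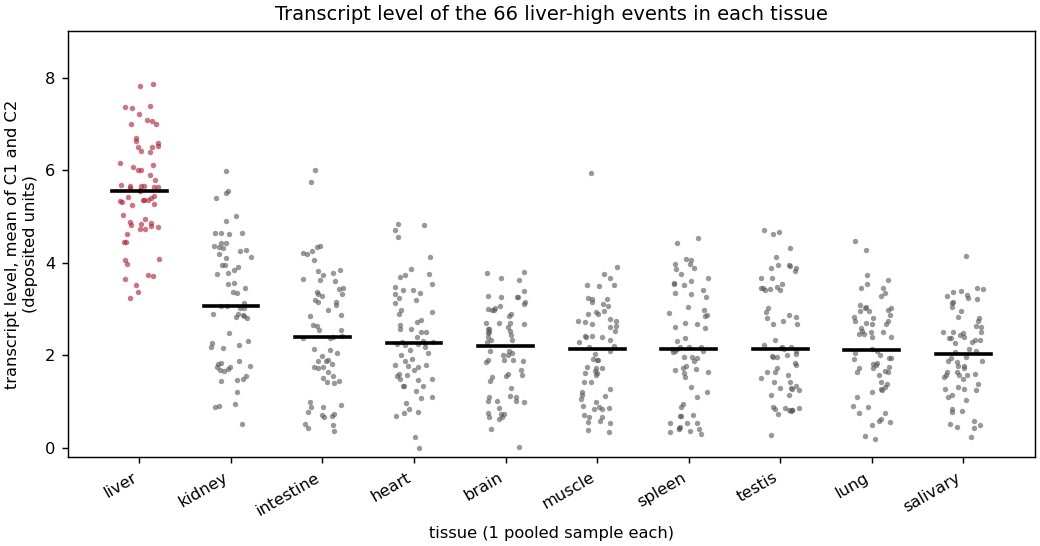
Transcript level (mean of C1 and C2, deposited units, vertical axis) of the 66 liver-high events in each of the 10 tissues (horizontal axis, 1 pooled sample each). Each point is an event and each bar the median over events, 5.56 in liver, 3.08 in kidney and 2.02 in salivary.

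The highest margin belonged to Ben2069, at 5.83 units. Its level was 7.81 in liver, against a lowest, median and highest value of 0.0147, 0.938 and 1.99 in the other tissues. Ben15 followed at 5.18, with a level of 6.53 in liver and 0.448, 0.733 and 1.34 elsewhere. In both events all 9 other tissues read far below liver, and no pair of those tissues differed by as much as the liver margin. Ben3829 had a margin of 4.58, with 7.37 in liver against 0.244, 0.365 and 2.86 elsewhere, where kidney was the highest. Ben1757 had 6.60 in liver against 0.387, 0.851 and 2.12, a margin of 4.47. Heart and lung were the next highest tissues in its A, A:C2 and C2 probes and not in C1. Its C2 probe read 7.37 in liver, 4.14 in heart and 3.58 in lung, whereas its C1 probe read 5.83 in liver and at most 1.44 elsewhere. Ben4330, with a margin of 4.44, read 7.34 in liver and 1.11, 1.75 and 2.89 elsewhere. Ben596, with a margin of 4.38, read 6.63 in liver and 0.873, 1.29 and 2.25 elsewhere. None of these 6 events was detected outside liver. Detection means that both flanks exceeded the 95th percentile of the INT probes on that array (2.80 in liver, 2.86 to 3.40 on the other arrays). Single probes did exceed that bar elsewhere. Examples were A, A:C2 and C2 of Ben1757 in heart and lung, C2 of Ben2069 in testis (3.85) and C1 of Ben3829 in kidney (3.26). A:C2 of Ben596 read 3.35 to 4.72 in the other tissues, above the bar in each.

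Just inside the threshold, Ben2829 had a level of 4.82 in liver and 1.94, 3.14 and 3.85 elsewhere, a margin of 1.04, and Ben2342 had 3.72 in liver and 1.59, 2.29 and 2.68 elsewhere, a margin of 1.05. Just outside it, Ben21 had 4.21 in liver and 1.37, 1.72 and 3.30 elsewhere, a margin of 0.976, and Ben1011 had 4.39 in liver and 2.14, 2.94 and 3.42 elsewhere, a margin of 0.965. The threshold cuts through a continuous run of margins. Of the 66 events, 30 had margins under 1.5, 24 had margins of 2.0 or more and 15 had margins of 3 or more. Ben2829 fell to a margin of 0.972 with the columns as deposited and to 0.602 after quantile normalization.

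Fewer events than the rule chose were detected in liver alone. Missing the bar in a tissue does not show absence there, as the single probes above it in Ben1757 and Ben596 show. In 31 of the 66 events no other tissue was detected, and liver itself was detected in 29 of these. Another 26 events were detected in 1 to 4 other tissues, 8 in 5 to 8, and Ben4087 in all 9. The margins of the 31 had a median of 2.64, and those of the remaining 35 a median of 1.26. For comparison, 1070 events were detected in liver, and 102 of these (9.53%) in no other tissue. The like count among the liver-high events was 29 of 64. The liver itself passed the bar in 64 of the 66 events, against 34.2% of all events. Since the rule chose events by these flanks in liver and in the other tissues, nothing is read from these shares. The exceptions were Ben710 and Ben3618, named after their values were seen. In Ben710, C1 read 1.24 in liver, below all other tissues (1.40 to 1.91), while C2 read 5.25 in liver against 1.25 to 2.14 elsewhere. In Ben3618, C1 read 4.71 in liver against 1.09 to 2.13 elsewhere, whereas C2 read 2.57 in liver and 3.60 in brain. For these events the liver level rests on a single flank.

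Ben4087 was the most widely detected of the liver-high events. Its level was 7.09 in liver, 5.93 in muscle, 5.97 in kidney, 5.75 in intestine and 4.81 in heart, and lay between 3.46 and 4.14 in the remaining 5 tissues. Its 6 exon and junction probes all read higher in liver than in any other tissue, by 0.206 for C1:C2 and by 1.05 to 1.26 for the others. After quantile normalization its level in liver was no longer the highest, with a margin of -0.18.

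By level, kidney was most often the tissue next to liver. It held the highest other level in 26 of the 66 events (39.4%), against 15.2% of all events. Testis was next in 9 events (13.6%, against 23.7% of all events), heart in 7 (10.6%, against 10.3%) and intestine in 6 (9.09%, against 8.83%). Salivary was next in 5 (7.58%, against 7.10%), muscle in 4 (6.06%, against 6.30%) and spleen in 4 (6.06%, against 8.41%). Brain was next in 3 (4.55%, against 14.6%) and lung in 2 (3.03%, against 5.60%). Kidney was also the other tissue in which most liver-high events were detected, 32 of 66 (48.5%, against 32% of all events). Intestine followed with 18 (27.3%, against 22.2%), testis with 17 (25.8%, against 25.6%), heart with 16 (24.2%, against 29.4%) and spleen with 13 (19.7%, against 14.4%), and salivary had the fewest with 2 (3.03%, against 8.16%). Kidney was next in 5 of the 24 events with margins of 2.0 or more (20.8%) and in 21 of the 42 with margins under 2 (50.0%). The margin is itself measured from the level of the next tissue, so no trend is read from this split. Among the 34 events that met the rule after quantile normalization, kidney was next in 17.6%. This share and the 20.8% lie closer to the 15.2% of all events, taken on the median-centred arrays, than the 39.4% does. Next tissue and detection are read from the flanks that chose the events, so these shares are a description. Without kidney in the comparison, 136 events met the rule.

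An order of liver first and kidney next over all the exon and junction probes can be followed in Ben1799, named after its values were seen. This event was detected in 4 other tissues, kidney among them. Its A probe read 5.42 in liver, 4.23 in kidney and between 1.73 and 3.55 elsewhere. Its C1:A probe read 5.48 in liver, 4.21 in kidney and 1.59 to 3.51 elsewhere. The 6 exon and junction probes had margins between 1.21 and 1.34, so exon, flanks and all 3 junctions were higher in liver than in kidney by like amounts. INT was not the highest in liver, at 0.722 in liver and 0.178 to 1.92 elsewhere.

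Most alternative exons and junctions of the liver-high events were high in liver along with the flanks. These probes did not enter the rule, but they come from the same transcripts and the same contrast, so their shares are a description. The A probe lay at least 1.0 unit above every other tissue in 44 of 66 events (66.7%, against 1.95% of all events). For C1:A this held in 44 (66.7%, against 1.79%), for A:C2 in 42 (63.6%, against 1.73%) and for C1:C2 in 41 (62.1%, against 1.86%). The skipping junction thus passed the margin about as often as the inclusion junctions. Median gains over the 66 events were 2.66 units for A, 2.56 for C1:A, 2.62 for A:C2 and 2.42 for C1:C2, beside 2.99 for C1 and 3.15 for C2. Over all events these medians lay between 0.00213 and 0.0864. The 4 kinds outside the flanks each held events with no gain, with a lowest gain of -0.32 for A, -0.56 for C1:A, -0.43 for A:C2 and -0.79 for C1:C2. In 10 events A gained under 0.5 units although the flanks were high.

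**Figure D2:**
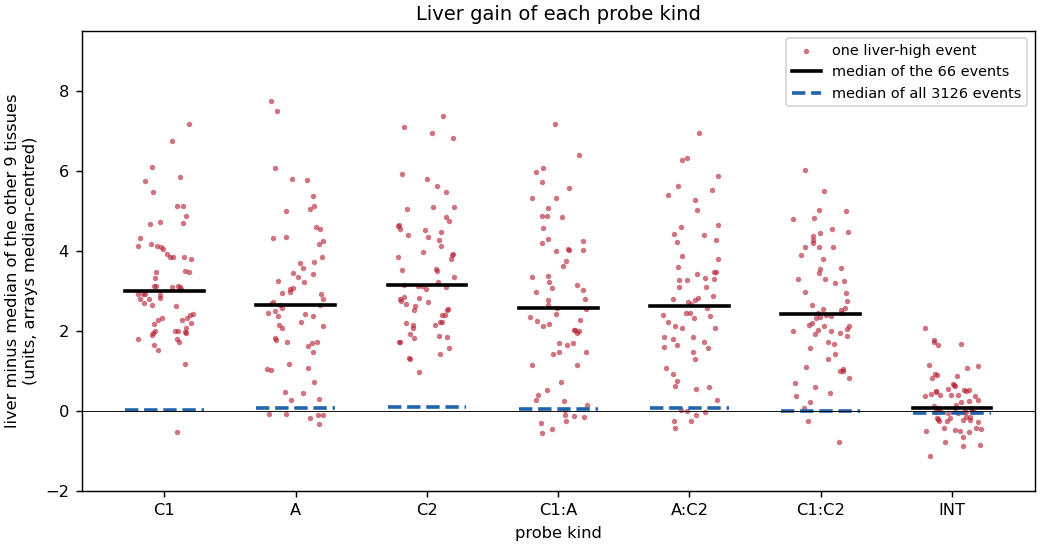
Gain of liver over the median of the other 9 tissues (median-centred units, vertical axis) for each probe kind (horizontal axis). Points are the 66 liver-high events, black bars their medians (2.66 for A, 2.42 for C1:C2, 0.0676 for INT) and dashed bars the medians of all 3126 events. C1 and C2 chose the events.

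The median INT probe did not share this pattern, although INT was highest in liver more often than over all events. Their median gain over the 66 events was 0.0676 units, and liver was the highest tissue in 12 of them (18.2%, against 6.91% of all events) and the lowest in 7 (against 13%). INT passed the margin in 3 events (4.55%, against 0.192%). In Ben3534 INT read 3.95 in liver and 0.656, 1.91 and 2.26 as the lowest, median and highest of the others, a margin of 1.69. In Ben1725 it read 2.34 in liver and 0.267, 0.686 and 1.01 elsewhere, a margin of 1.32. In Ben15 it read 1.83 in liver and was listed at 0 in 5 tissues, with a highest other value of 0.644 and a margin of 1.26. In these 3 events the flanks were also far above the other tissues, with level margins of 2.47, 3.86 and 5.18.

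The probes were then combined to ask which splice form carried the liver signal in each event. In 27 events (40.9%, against 0.896% of all events) A, at least 1 inclusion junction and C1:C2 all passed the margin. Probes of both forms thus read higher in liver than anywhere else in these events, and the amounts of the forms themselves were not measured apart. In 14 events (21.2%, against 0.512%) A and at least 1 inclusion junction passed and C1:C2 did not. In 8 events (12.1%, against 0.608%) C1:C2 passed and A and both inclusion junctions did not. Another 12 events (18.2%, against 1.44%) had other combinations, and in 5 (7.58%, against 96.5%) none of these probes passed. A, C1:A, A:C2 and C1:C2 passed together in 23 events, out of 24 events on the whole array that did so (0.768%). At this cut of 1.0, both forms passed in 17 of the 24 events with level margins of 2.0 or more and in 10 of the 42 below. A fixed cut is easier to pass for events chosen for larger margins, so no trend is read from these counts. With a margin of 2.0 for every probe, both forms passed in 45.8% of the 24 events. A probe that misses the margin may still be higher in liver, so the classes name what passed and do not show that the other form was absent.

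Ben2069 is in the class of both forms. C1:A read 7.47 in liver and 0, 0.334 and 1.44 as the lowest, median and highest elsewhere, and C1:C2 read 5.58 in liver and 0, 0.625 and 4.31. The high other values of C1:C2 came from muscle (4.24) and spleen (4.31), where the flanks read at most 0.676. Ben15 also gained in probes of both forms, but less at the C1 side. Its A:C2 read 7.42 in liver and 1.83, 2.07 and 2.84 elsewhere, its C1:A 3.53 in liver and 0, 0.232 and 0.800, and its C1:C2 3.50 in liver and 0, 0.233 and 0.752. In Ben3829 the gains were 6.07 for C1:A, 6.33 for A:C2 and 4.38 for C1:C2. In these 3 events liver stood above every other tissue in each exon and junction probe.

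The inclusion-only class was led by Ben3014, Ben3534 and Ben1468. In Ben3014, A read 4.58 in liver and 0.477, 0.878 and 1.68 elsewhere, and C1:A read 4.96 in liver and 0, 0.387 and 1.49. Its C1:C2 was also high, at 4.65 in liver, but read 3.81 in muscle and 3.85 in spleen and at most 1.46 in the remaining 7 tissues. Its A:C2 read 3.14 in liver, below muscle (3.96) and spleen (4.03). Without muscle and spleen in the comparison, Ben3014 would join the class of both forms, as would Ben3534 and Ben4087. In Ben3534, C1:A read 6.68 in liver and 1.73, 2.67 and 4.12 elsewhere. Its C1:C2 read 4.28 in liver, 4.77 in muscle, 4.91 in spleen and at most 1.81 elsewhere, so for both leading events the class is set by muscle and spleen.

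Ben1468 differed from these. Its A read 3.66 in liver and 0.599, 0.831 and 1.64 elsewhere, and A:C2 read 4.07 in liver and 0.526, 1.27 and 1.90. Both junction probes that start in C1 were high everywhere, C1:A at 4.12 in liver and 3.34 to 4.45 elsewhere, and C1:C2 at 4.55 in liver and 3.17 to 4.60 elsewhere, although C1 itself read 3.91 in liver and at most 1.42 in the others. These junction probes did not follow the flanking exons across tissues, and what they read there was not tested.

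In the 8 events of the skipping-only class C1:C2 passed the margin, both flanks passed in 6, and the exon probe A was highest in liver in 2 without passing. In Ben4141, C1 read 5.09 in liver and 0.742, 1.0 and 1.72 elsewhere, and C1:C2 read 5.15 in liver and 2.20, 2.63 and 3.26. Its A probe read 1.09 in liver and 0.524, 0.687 and 1.49 elsewhere, below heart, and C1:A read 2.51 in liver, inside the range of 2.16 to 2.97 of the others. In Ben1520, C1:C2 read 3.21 in liver and 0, 0.249 and 1.16 elsewhere, while A read 2.86 in liver and 2.47, 3.01 and 3.45 and A:C2 read 1.13 in liver and 0, 0.523 and 1.33. Liver overlapped the other tissues in A and in both inclusion junctions of these 2 events and in none of the flanks.

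Ben1803 had a skipping junction of 6.52 in liver against 3.88, 4.54 and 5.12 elsewhere, with C1 at 6.50 in liver and 2.07, 2.60 and 3.98 elsewhere. A read 2.75 in liver and 1.42, 2.03 and 2.57 elsewhere. Its A:C2 junction read 2.45 in liver, 7.46 in brain and 0.887 to 2.59 in the remaining 8 tissues, while the level in brain was only 2.30. Over the 8 events of this class the median gain was 3.21 for C1, 3.05 for C2 and 2.48 for C1:C2, against -0.10 for A, 0.0752 for C1:A and 0.402 for A:C2. Some of these inclusion probes read near the INT median of 1.11 in liver, so a difference between tissues in them could not be resolved at this signal.

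**Figure D3:**
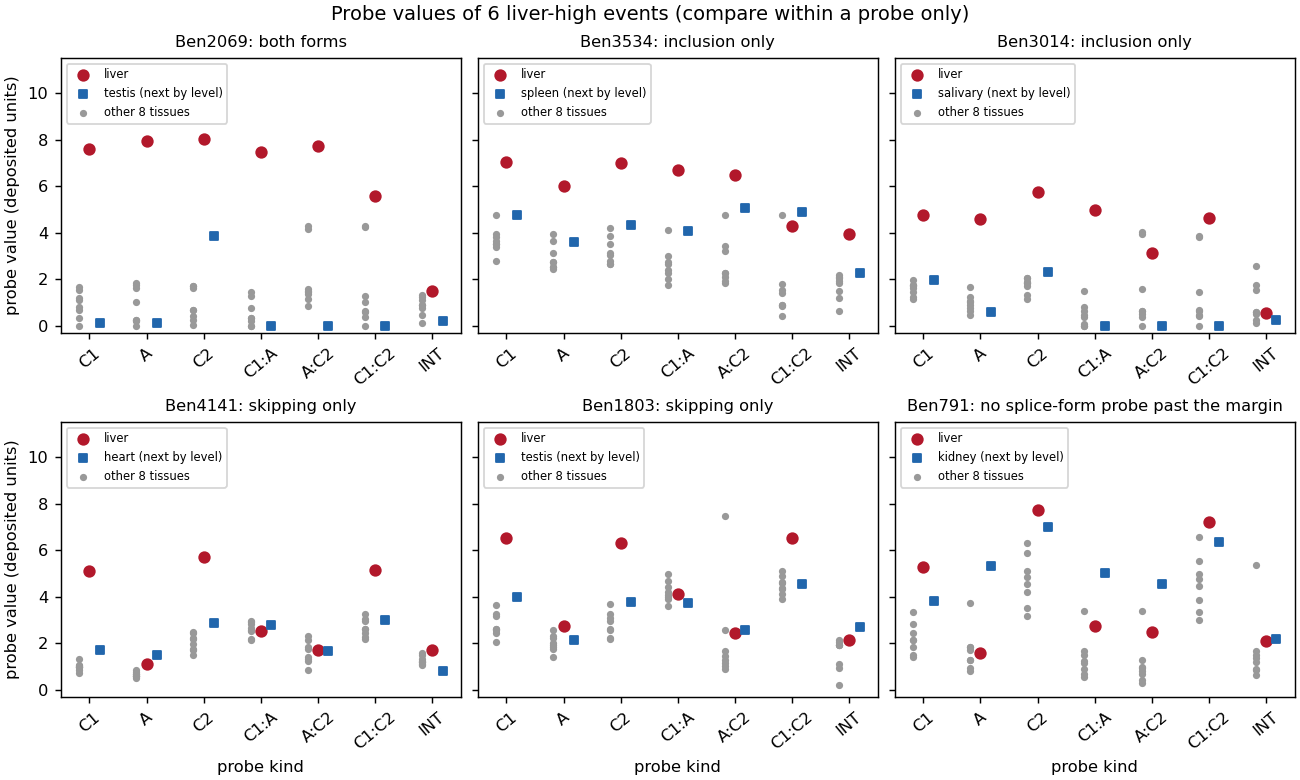
Deposited values (vertical axis) of the 7 probes (horizontal axis) of 6 liver-high events, for liver (large circles), the tissue with the next highest level (squares) and the other 8 tissues (small points), 1 sample each. In Ben4141 liver is high in C1, C2 and C1:C2 and lies among the other tissues in A, C1:A and A:C2. In C1:C2 of Ben3014 the small points nearest to liver, just below it, are muscle and spleen. In C1:C2 of Ben3534 the square (spleen) and a small point (muscle) lie above liver.

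Values of muscle and spleen that stood together above the other tissues recurred among the liver-high events. Both exceeded each of the remaining 7 non-liver tissues by 1.0 unit or more in at least 1 probe in 7 of the 66 events (10.6%), against 4.67% of all events. The probes were A:C2 and C1:C2 in Ben2069, Ben3014 and Ben3534, C2 and C1:A in Ben4330, C1:A in Ben2884, and INT in Ben758 and Ben4232. Ben2884, Ben758 and Ben4232 were named after their values were seen. In Ben758, INT read 0 in liver, 4.71 in muscle, 4.83 in spleen and at most 1.53 elsewhere, whereas its level was 7.87 in liver, 3.23 in muscle and 3.90 in spleen. In Ben4330, C2 read 6.80 in liver, 2.83 in muscle, 2.91 in spleen and at most 1.14 elsewhere. In both events muscle and spleen read alike and apart from the other tissues in these probes. Leaving out both tissues changed the class of 4 of the 66 events and left 12 in the inclusion-only class, 30 with both forms and 8 with skipping only.

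Exon use in liver can be set against another tissue only where that tissue makes the transcript too. In 35 of the 66 events both flanks were detected in liver and in the next tissue, which was kidney in 20. The junction index subtracts the C1:C2 value from the average of C1:A and A:C2, and was compared between those tissues in each event. It differed by less than 0.5 units in 18 of the 35, against 604 of the 934 events of the array detected in the same way. The median difference was 0.0011 units, against 0.0626 over those 934 events. The index was lower in liver by 1.0 unit or more in 9 events (25.7%, against 8.99% of the 934), and higher in liver in 2 (5.71%, against 7.82%). Kidney was the next tissue in 6 of the 9. In 5 of the 9, Ben1803, Ben2579, Ben3089, Ben294 and Ben1800, the A probe was under the INT bar in both tissues, and in 3 of these, Ben2579, Ben294 and Ben1800, both inclusion junctions were as well. Where the inclusion probes lie under the bar in both tissues, the index rests on C1:C2 and on low signal, and gives no measure of exon use. In Ben1800 C1:A also differed under the bar, at 1.80 in liver and 0.378 in testis. The body index, A minus the level, follows the level where A lies under the bar in both tissues. The others of the 9 were Ben791, described below, and Ben1551, Ben924 and Ben3018. In Ben1551, Ben924 and Ben3018 the body index differed by only 0.024, -0.026 and -0.034, so A was higher in liver along with the level. Ben3089, Ben294, Ben1800, Ben1551, Ben924 and Ben3018 were named after their values were seen. The 66 events were chosen by level and the 934 were not, and the shares were not tested against each other. After quantile normalization 8 liver-high events could be compared in this way, of which 1 had an index lower in liver by 1.0 unit and 0 had a higher one. These counts changed with membership and with which tissue was next. Against the same tissue as before, 3 of the 9 stayed lower by 1.0 unit or more and both events with a higher index stayed higher by 1.0 unit or more.

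**Figure D4:**
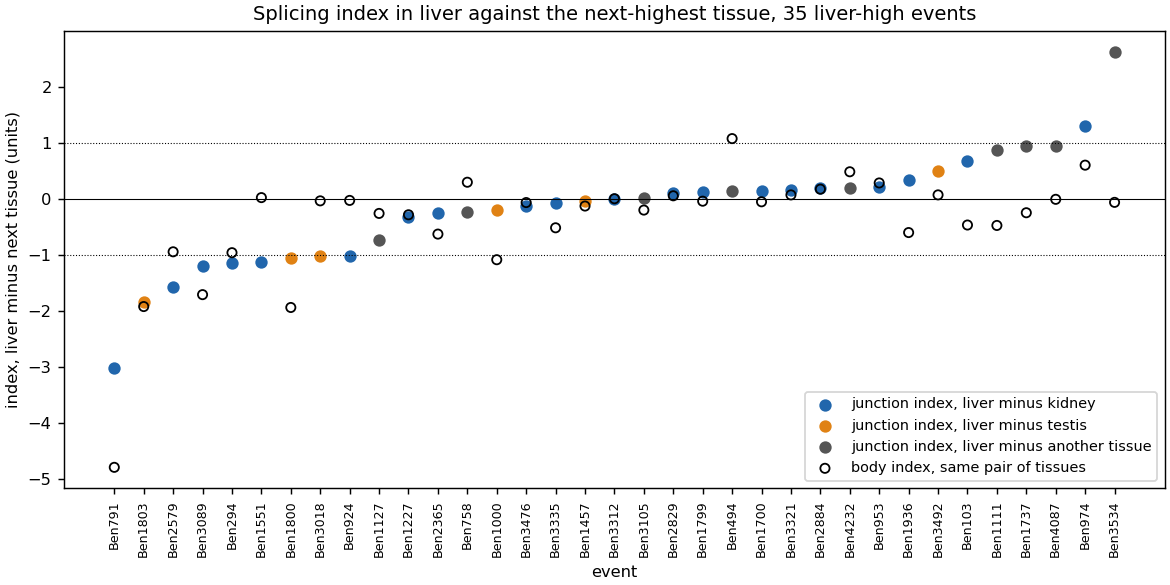
Junction index in liver minus that in the tissue with the next highest level (units, vertical axis, filled points coloured by that tissue) for the 35 liver-high events detected in both (horizontal axis), with the body index difference as open circles. Dotted lines mark 1 unit either way, and 9 events lie at or below -1 and 2 at or above 1.

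The largest drop was in Ben791, whose index was lower in liver than in kidney by 3.01 units and whose body index, A minus the level, was lower by 4.80. Its A probe read 1.60 in liver, 5.30 in kidney and 3.71 in intestine, and between 0.815 and 1.83 in the remaining 7 tissues. C1:A read 2.73 in liver and 5.03 in kidney, and A:C2 read 2.49 in liver and 4.53 in kidney. The flanks and the skipping junction went the other way, with C1 at 5.27 in liver and 3.82 in kidney and C1:C2 at 7.20 in liver and 6.35 in kidney. All 3 probes of the exon were lower in liver than in kidney and intestine, in a transcript with more signal in liver than in either. The index difference was -2.29 after quantile normalization. With a level margin of 1.17, Ben791 misses the rule after quantile normalization, at 0.762.

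In Ben1803, set against testis, the index was lower in liver by 1.83. C1:C2 read 6.52 in liver and 4.54 in testis, whereas A:C2 read 2.45 in liver and 2.55 in testis and A read 2.75 in liver and 2.15 in testis, under the INT bar in both. In Ben2579, set against kidney, the index was lower by 1.58. Its C1:C2 read 5.22 in liver and 3.79 in kidney, while A read 1.31 in liver and 1.06 in kidney and C1:A 0.799 in liver and 0.917 in kidney. Those inclusion probes lay under the INT bar in both tissues, so the index moved through the skipping junction. After quantile normalization the difference in Ben2579 was -0.89.

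The 2 events with a higher index in liver differed in their exon body. In Ben3534 the index was higher in liver than in spleen by 2.63 while the body index differed by -0.06. This came with the spleen value of C1:C2 described above. Without spleen in the comparison, or without muscle and spleen, 1 event had a higher index by 1.0 unit. In Ben974, set against kidney, the index was higher by 1.30 and the body index by 0.604. A read 5.64 in liver and 4.04 in kidney and A:C2 read 5.54 in liver and 3.98 in kidney, but the junctions that start in C1 were lower in liver than in all other tissues, C1:A at 3.38 against 3.50 to 4.05 and C1:C2 at 3.53 against 3.87 to 4.52. Next in order was Ben4087, where the index was higher in liver than in muscle by 0.946 and the body index differed by -0.01.

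Flanking exons themselves parted in some events. Both flanks passed the margin in 51 of the 66, C1 alone in 11 and C2 alone in 4. Over all events C1 passed in 2.34% and C2 in 2.02%, whether or not the other flank did. The gain of C2 exceeded that of C1 by 1.0 unit or more in 8 events and the gain of C1 that of C2 in 4. How often flanks part in these ways over all events was not counted, so nothing particular to the liver-high events is read from it. In Ben710 the high probes were A, A:C2 and C2, at 5.34, 4.99 and 5.25 in liver against at most 1.97, 2.03 and 2.14 elsewhere, while C1, C1:A and C1:C2 did not pass. The probes of Ben710 that passed lie in or between the alternative exon and C2, and none of those that touch C1 passed.

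The same rule gave 252 events in testis, 112 in brain and 34 in kidney. The A probe passed the margin in 66.7% of the liver-high events, 66.3% of the testis-high, 52.7% of the brain-high and 55.9% of the kidney-high events. Both forms passed in 40.9% of the liver-high, 42.9% of the testis-high, 18.8% of the brain-high and 29.4% of the kidney-high events. Skipping only held 12.1% of the liver-high, 12.3% of the testis-high, 16.1% of the brain-high and 14.7% of the kidney-high events. These shares were not tested against each other, and each set was chosen by its own tissue's flanks.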

How the data were processed

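Pooled total RNA of 10 mouse tissues was hybridised to a splicing array, 1 sample per tissue, grouped by the sample titles. The values are the authors' deposited probe values, treated as a score on a compressed scale that stops at 0. The labels and the table do not state the base, transformation, scanner, dyes or background correction. The table held 21882 probes, 7 for each of 3126 events, with no duplicated rows and no unused sample columns.

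Each array was centred on its median. An event's level averaged its C1 and C2 values. The margin was the liver value minus the highest of the other 9 tissues, and the gain was the liver value minus their median. A margin of 1.0 chose the events and was applied to each further probe. An event was taken as detected in a tissue where C1 and C2 both exceeded the 95th percentile of that array's INT probes. The junction index subtracted C1:C2 from the average of the inclusion junctions, and the body index subtracted the level from A. With no replicate of any tissue, no test was run. The number of arrays limits the precision.

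The events, classes and settings were chosen with earlier results of these data known. The events named were the 6 with the largest margin, 2 on each side of the threshold, and the 3 with the largest margin in each of 3 splice-form classes. The rule also took the 3 with the highest INT margin and the 3 highest and 3 lowest junction index differences among events detected in liver and in the next tissue. The planned gene lists and liver markers could not be applied, because no table used here pairs events with genes. Alternatives were the columns as deposited, quantile normalization, margins of 0.5 and 2.0, both flanks past the margin, detection in liver, and each other tissue left out. Leaving out muscle and spleen together was added after the values were seen. The scripts were first tested on simulated data. Scripts ran under Python 3.11.15 with pandas 2.3.3 and numpy 2.4.6, and figures were drawn with matplotlib 3.10.9.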

Additional observations from a re-analysis of the deposited data

How the results depend on the processing

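No paired analysis was possible because there was a single pool for every tissue. The number of liver-high events was 34 after quantile normalization, 181 at a margin of 0.5 and 24 at a margin of 2.0, and ranged from 66 to 136 when single tissues were left out, with 136 without kidney. At a margin of 2.0, applied to every probe, A passed in 79.2% of the events, INT in 0%, the inclusion-only class held 33.3% and kidney was next in 20.8%. After quantile normalization the inclusion-only class held 11.8% and kidney was next in 17.6%. Events with a lower junction index numbered 1 after quantile normalization, 27 at a margin of 0.5 and 0 at a margin of 2.0, and from 6 to 10 without single tissues. Events with a higher index numbered 1 with the columns as deposited, 0 after quantile normalization, 16 at a margin of 0.5, 1 at a margin of 2.0, 1 with both flanks past the margin and 1 without muscle and spleen, and from 1 to 5 without single tissues (5 without kidney, 1 without spleen). The median INT gain turned to -0.00965 at a margin of 0.5, and the level margin of Ben4087 to -0.18 after quantile normalization. Of 143 recomputed shares of events, 137 stayed inside the 95% exact binomial interval of the reported share, which covers counting over events only. That interval treats events as independent. Each alternative set either lay within the 66 events or contained all of them. The shares therefore overlap by construction, and their agreement is no test of stability. Other margins change counts by construction, and the cause of the remaining shifts was not tested. Low signal limits the comparison of exon use to the 35 events detected in liver and the next tissue.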
